A study of Homo sapiens with 3 samples.

Results

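The genes described here are the ZNF zinc finger genes of human chromosome 19, and the question asked of them is where peaks of RBPJ and L3MBTL3 lie at these genes and their promoters. The members are the protein-coding genes of chromosome 19 in GENCODE 44 (hg19) whose symbol is ZNF followed only by digits. There were 240 of them among 19821 protein-coding genes of all chromosomes, and chromosome 19 held 1196 other protein-coding genes. The series measured where both proteins lie on chromatin in MDA-MB-231, a human breast cancer cell line of mesenchymal, hormone receptor-negative type. Chromatin immunoprecipitation and sequencing (ChIP-seq) was done with the RBPSUH(D10A4) antibody for RBPJ and with the anti-L3MBTL3 antibody (Bethyl), in cells with no stated treatment or genetic change. A single library was made with either antibody, and the input was not analysed here. The labels state a depth of 30000000 to 40000000 aligned reads per library, and the deposited lists held 2926 RBPJ and 444 L3MBTL3 peaks, of which 235 and 14 were on chromosome 19. Replicate error could therefore not be measured, and no test between groups of genes was run. The intervals given are 95% Wilson intervals, which cover counting error only, and neighbouring genes share peaks, so genes are not replicates. Peak lists hold no measure of expression, so the identity of the cells was not checked against marker genes.

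Zinc finger genes of this class encode DNA-binding proteins with arrays of C2H2 fingers, and most of those on chromosome 19 arose by tandem duplication and lie side by side in clusters. Many carry a KRAB domain, which recruits the corepressor TRIM28 and, through it, the histone methyltransferase SETDB1 and heterochromatin proteins, and many bind and silence transposable elements. RBPJ (also called CBF1) is the DNA-binding protein of the Notch pathway and recognises sequences with the core TGGGAA, most strongly CGTGGGAA or TGTGGGAA. L3MBTL3 is an MBT domain protein that reads methylated lysines.

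The sequences shown here are 3 regions at RBPJ peaks of members with a high-affinity word within 100 bp of the summit. A summit is the base that the peak caller gave as the peak's highest point. Each is from hg19, plus strand, and capitals mark CGTGGGAA or TGTGGGAA or their reverse complement. The first lies in the intron of ZNF675 at chr19:23709390-23709539, the second is the whole ZNF155 peak at chr19:44488134-44488320, and the last holds the ZNF614 peak at chr19:52531700-52531900.
ZNF675: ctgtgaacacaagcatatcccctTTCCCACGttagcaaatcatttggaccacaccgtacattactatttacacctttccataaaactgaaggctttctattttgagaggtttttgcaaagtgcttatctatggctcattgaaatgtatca
ZNF155: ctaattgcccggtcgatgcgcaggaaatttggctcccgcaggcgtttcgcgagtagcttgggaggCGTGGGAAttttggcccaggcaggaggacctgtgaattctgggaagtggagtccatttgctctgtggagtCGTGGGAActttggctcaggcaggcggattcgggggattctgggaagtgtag
ZNF614: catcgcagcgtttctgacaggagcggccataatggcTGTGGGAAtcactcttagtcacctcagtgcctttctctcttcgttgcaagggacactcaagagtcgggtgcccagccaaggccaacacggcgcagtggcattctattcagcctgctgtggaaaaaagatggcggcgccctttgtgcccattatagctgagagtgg
The ZNF675 region holds 1 word, centred 16 bp from the summit. ZNF155 holds 2, centred 21 and 91 bp from it, both on the strand of the gene, and ZNF614 holds 1, centred 61 bp from it and outside the called peak, which starts at 52531746.

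RBPJ peaks were found at fewer of these genes than at other genes of the same chromosome. A gene was counted where an RBPJ summit lay in its body or within 10 kb of a transcription start site (TSS) of one of its protein-coding transcripts. By this rule 19 of 240 members had a peak (7.92%, interval 5.13 to 12) and 221 had none. Of the 1196 other chromosome 19 genes, 224 had one (18.7%, 16.6 to 21.0), and the share over all 19821 protein-coding genes was 12.4%. The intervals of the members and of the other chromosome 19 genes did not overlap. ZNF genes of other chromosomes, named by the same symbol pattern, had a peak in 31 of 236 cases (13.1%, 9.41 to 18), between the other groups and with an interval that overlaps that of the members. Within 1 kb of a TSS the shares were 5.83% of members (14 genes, 3.51 to 9.55), 11.1% of other chromosome 19 genes (9.46 to 13.0), 11.9% of ZNF genes elsewhere (8.34 to 16.6) and 8.87% of all genes. In that window the intervals of the members and the other chromosome 19 genes touched.

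The lower share of members was also seen among genes with CpG-rich promoters. A gene was CpG-rich where 1 kb about a TSS had an observed over expected CpG ratio above 0.6, as 2233 of the 2451 genes with an RBPJ peak were. Members were CpG-rich in 83.3% of cases and other chromosome 19 genes in 62.6%. Among CpG-rich genes, 18 of 200 members had a peak (9.0%, 5.77 to 13.8), beside 192 of 749 other chromosome 19 genes (25.6%, 22.6 to 28.9) and 31 of 200 ZNF genes elsewhere (15.5%, 11.1 to 21.2). Over all CpG-rich protein-coding genes the share was 16.1% (15.5 to 16.7). Of the 40 members without a CpG-rich TSS, 1 had a peak, ZNF675 (2.50%, 0.443 to 12.9). Among such genes the share was 7.16% of other chromosome 19 genes (5.12 to 9.93) and 3.66% of all genes (3.21 to 4.17). The members' interval overlapped both, so a lower share was not seen in this class. Members were longer, with a median body of 25.5 kb against 13.7 kb. Per length of body, counting overlapping genes once, RBPJ summits numbered 1.90 per Mb in members, 5.04 per Mb in other chromosome 19 genes and 1.27 per Mb in all genes. Gene activity was not measured, and its part in these shares was not tested.

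**Figure D1:**
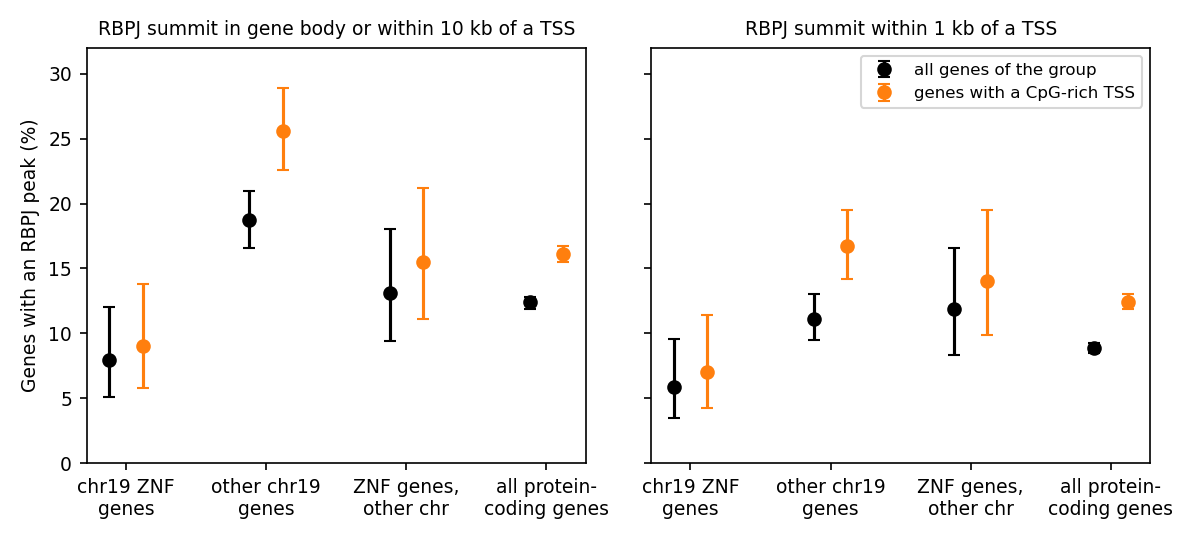
Percent of genes with an RBPJ peak (y axis) in 4 groups of genes (x axis) for the full window and for 1 kb about a TSS; points are shares, bars 95% Wilson intervals, black all genes and orange genes with a CpG-rich TSS. The members sit at 7.92% in the full window and the other chromosome 19 genes at 18.7%, and among CpG-rich genes the shares are 9.0% and 25.6%.

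No member had an L3MBTL3 peak. The count was 0 of 240, which allows a share of up to 1.25% when 3 counts are taken as the limit of a count of 0 (the Wilson upper bound is 1.58%), and the share over all protein-coding genes was 1.65%. Of the other chromosome 19 genes 13 of 1196 had one (1.09%, 0.636 to 1.85), and of the ZNF genes elsewhere 2 of 236 did (0.847%, 0.233 to 3.04). In this window the members' interval overlapped those of the other groups (1.49 to 1.84 for all genes). Among CpG-rich genes 0 of 200 members had one (upper bound 1.88%), beside 1.20% of other chromosome 19 genes (0.633 to 2.27). ZNF genes elsewhere had 1.00% there (0.275 to 3.57). The share over all CpG-rich genes was 2.27% (2.03 to 2.53), above the members' bound. The L3MBTL3 peak closest to a member was at the TSS of INSR, the insulin receptor gene (fold 5.60), 225 kb from the TSS of ZNF557. The next lay 363 kb from ZNF296 and 385 kb from ZNF791, the latter at NFIX. No member therefore had overlapping peaks of both proteins.

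The 19 members shared 21 RBPJ peaks, and most of these were at promoters. Of the 21 summits, 17 were within 1 kb of a member's TSS (81.0%, 60.0 to 92.3), 3 were deeper in a gene body (ZNF611, ZNF627 and ZNF675) and 1 lay outside the body (ZNF584). At other chromosome 19 genes 152 of 207 summits were at a promoter (73.4%, 67.0 to 79.0), so the position of the peaks was not distinguishable from that at other genes. The last exon, which holds the finger array in most members, carried 0 of the 21 summits when taken from each gene's canonical transcript. By annotation of any protein-coding gene, 8 summits lay in a UTR, 1 in a coding exon, 8 in introns and 4 between genes. The UTR was that of the neighbour FIZ1 for the ZNF524 peaks, and the intron that of MBD3L3 for the ZNF557 peak. In the body of a member lay 14 of the 21 summits. ZNF160, ZNF274, ZNF524 and ZNF865 had 2 peaks each and the other 15 members had 1.

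Several of these promoters are shared with a neighbour. Both peaks counted for ZNF524, which encodes a telomere-binding protein, lay 11 and 59 bp from a TSS of FIZ1, 516 and 333 bp upstream of ZNF524, and the same pair was counted for ZNF865 from 6141 and 5958 bp away. The ZNF557 summit was 224 bp upstream of that gene and 186 bp inside MBD3L3. The ZNF584 summit was 7160 bp from the nearest TSS of a protein-coding transcript but 15 bp upstream of the start of another transcript of ZNF584, and its nearest protein-coding TSS was that of RNF225, 5833 bp away. In all, 17 of 21 summits had a member's TSS as the nearest one. For the ZNF675 peak this was the TSS of another member, ZNF91. Outside the window by little were ZNF580 and ZNF581, whose TSS lay 10415 and 10858 bp from the ZNF784 peak, ZNF444, 11236 bp from the ZNF787 peak, and ZNF132, 11475 bp from a peak of fold 3.35. The members farthest out among those counted without a summit in the body were ZNF584 and ZNF865.

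**Figure D2:**
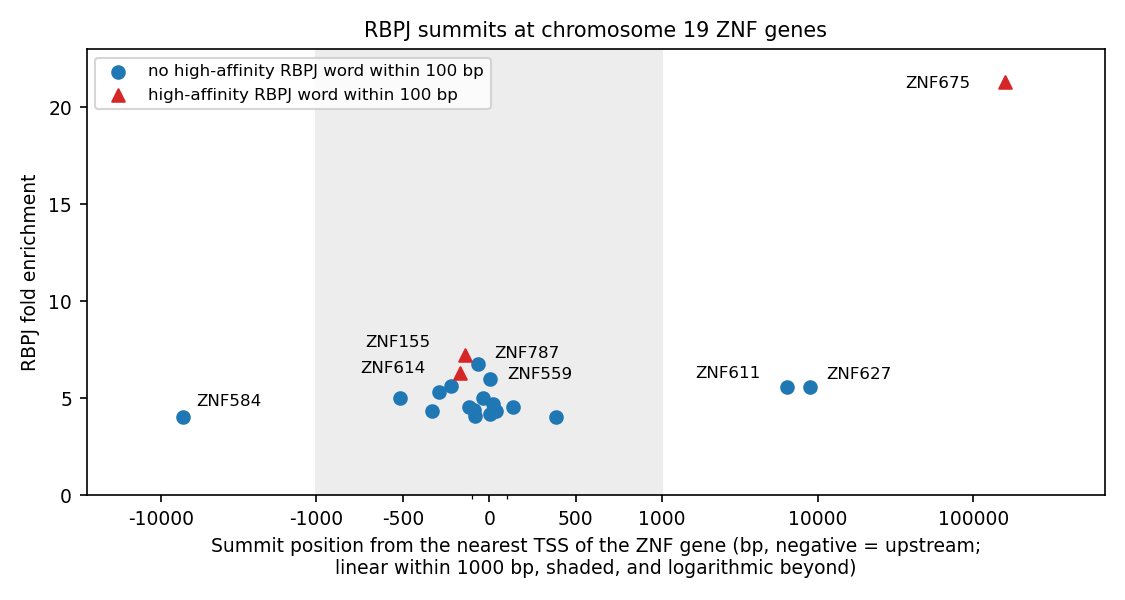
RBPJ fold enrichment (y axis) of the 21 peaks against the signed distance of the summit from the nearest TSS of the ZNF gene in bp (x axis, linear within 1000 bp and logarithmic beyond); triangles have a high-affinity word within 100 bp. The 17 promoter peaks have folds of 4.06 to 7.24, and ZNF675, 160 kb from its TSS, stands alone at 21.3.

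The fold enrichment of a peak, as the authors deposited it, is the signal at the summit over the caller's local background, and no error can be given for it. Across the 21 peaks the median fold was 5.0 (quartiles 4.33 and 5.65, range 4.05 to 21.3), beside 5.07 (4.52 and 5.57, range 3.16 to 10.7) for the other 214 chromosome 19 peaks and 5.08 for all RBPJ peaks. The medians differed by less than the quartile range of any group. At a -log10 q of at least 5, where q is the peak caller's adjusted p, 3 of the 21 peaks were left (14.3%, 4.98 to 34.6), beside 38 of 214 other chromosome 19 peaks (17.8%, 13.2 to 23.4) and 21.9% of all peaks. These 3 were the peaks of ZNF675, ZNF155 and ZNF787.

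The ZNF675 peak was the highest of the whole list. ZNF675 encodes a KRAB zinc finger protein known to bind the signalling adaptor TRAF6. Its fold was 21.3 and its -log10 q 52.9, at chr19:23709146-23709682 (537 bp wide against a median of 74 bp for the 21 peaks). Only 1 of the 9 annotated transcripts of ZNF675 extends over it. The summit lies in an intron of that transcript, 11 bp from its last exon, and the other transcripts end 7.58 kb away or farther. Attribution of this peak to ZNF675 therefore rests on 1 transcript, and the nearest TSS of a protein-coding transcript, 131 kb away, is that of ZNF91, whose protein is known to silence SVA retrotransposons. A ZNF675 transcript that is not typed protein-coding starts slightly nearer, at 130536 bp. With this peak left out the median fold of the remaining 20 was 4.85.

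The ZNF155 peak came next among members, with a fold of 7.24 and a -log10 q of 8.49, rank 143 of 2926. Its summit was 141 bp upstream of a TSS, in an intron of a longer transcript. The ZNF787 peak (chr19:56632672-56632770) had a fold of 6.75, with its summit 68 bp upstream of the TSS and no RBPJ word of either kind within 100 bp. The ZNF614 peak had a fold of 6.29 and a -log10 q of 4.90, 168 bp upstream of a TSS. These 3 were the highest folds among the promoter peaks. The next was 5.99, and without an error for the folds the step to it cannot be judged.

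The other peaks had folds of 5.99 or less. ZNF559 had a fold of 5.99 with its summit 5 bp from a TSS in an exon, and ZNF557 5.65. Away from promoters ZNF611 had a fold of 5.60 and ZNF627 a fold of 5.58, and both held an AP-1 word (TGACTCA or TGAGTCA) within 100 bp. A ZNF274 promoter peak held one too, and the ZNF675 and ZNF584 peaks did not. In all, 3 of the 21 peaks held the word (14.3%, 4.98 to 34.6), beside 11.2% of all RBPJ peaks. ZNF160, which encodes a KRAB zinc finger protein, had folds of 4.18 at its TSS and 5.33 at 289 bp upstream. ZNF524 and ZNF865 had the shared folds of 5.02 and 4.33. ZNF784 had 5.0, at 35 bp upstream. ZNF274 encodes a protein known to bring SETDB1 to the 3′ ends of zinc finger genes, and it had folds of 4.70 and 4.58. Below these were ZNF792 with 4.58, ZNF709 with 4.38, ZNF699 with 4.33, ZNF544 with 4.08, ZNF653 with 4.06 and ZNF584 with 4.05. The last 4 had a -log10 q of 1.55 to 2.12, and the smallest in the list was 1.31.

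**Figure D3:**
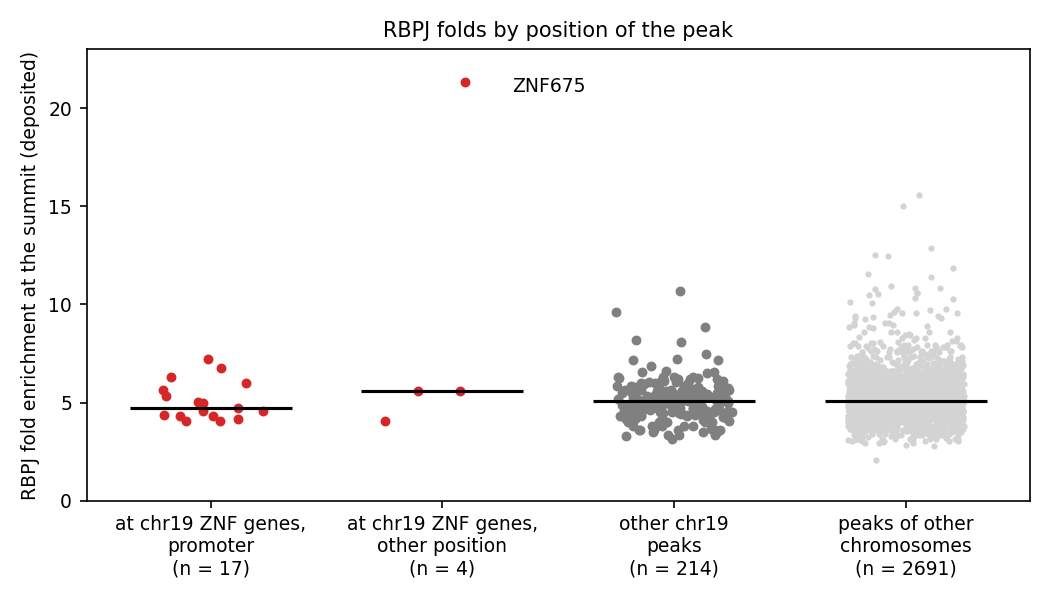
Deposited RBPJ fold enrichment (y axis) for promoter peaks at members, other peaks at members, other chromosome 19 peaks and peaks of other chromosomes (x axis, with the number of peaks); each point is a peak and each line the median. Apart from ZNF675 at 21.3, the members' peaks lie within the range of the other chromosome 19 peaks, 3.16 to 10.7.

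Members with a peak were spread over 9 of the clusters into which these genes fall. A cluster was a run of at least 3 members with no more than 250 kb between neighbours. There were 12 clusters with 5 to 41 members, which held 226 of the 240 members, and those 9 had at least 1 member with a peak. The cluster at chr19:55987984-56156989 had 3 of 7 members with a peak (ZNF524, ZNF865 and ZNF784), but 2 of these share the FIZ1 promoter. The cluster of ZNF699 and ZNF559 (chr19:9251073-9903856) had 2 of 11. Of the 4 largest clusters, the share with a peak was 3 of 41 (7.32%) at chr19:57702868-58992597 (ZNF274, ZNF544 and ZNF584), 3 of 39 (7.69%) at chr19:52074536-54083523 (ZNF614, ZNF611 and ZNF160), 1 of 29 (3.45%) in the cluster of ZNF675 and 3 of 25 (12%) at chr19:11594242-12750912 (ZNF653, ZNF627 and ZNF709), beside 7.92% of all members.

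No member had a peak in 3 of the clusters, which have 37 members. One of these, at chr19:36673178-38307940, ran from ZNF565 to ZNF573 and had 24 members, all CpG-rich, 3 of which held a high-affinity RBPJ word in the promoter. An RBPJ peak lies inside that span (fold 5.08), 52 bp from the TSS of ZFP14, which is not a member. The others were ZNF554 to ZNF77 (5 members) and ZNF101 to ZNF486 (8 members, 3 of them CpG-rich). The cluster next to the centromere, at chr19:20718631-24312770, was CpG-rich in 7 of 29 members, and its 1 peak was that of ZNF675. With few peaks per cluster, differences between clusters were not tested. Leaving out each cluster in turn gave shares of members with a peak of 6.87% to 8.80%. These are pooled over the remaining members, so they do not compare clusters with each other.

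**Figure D4:**
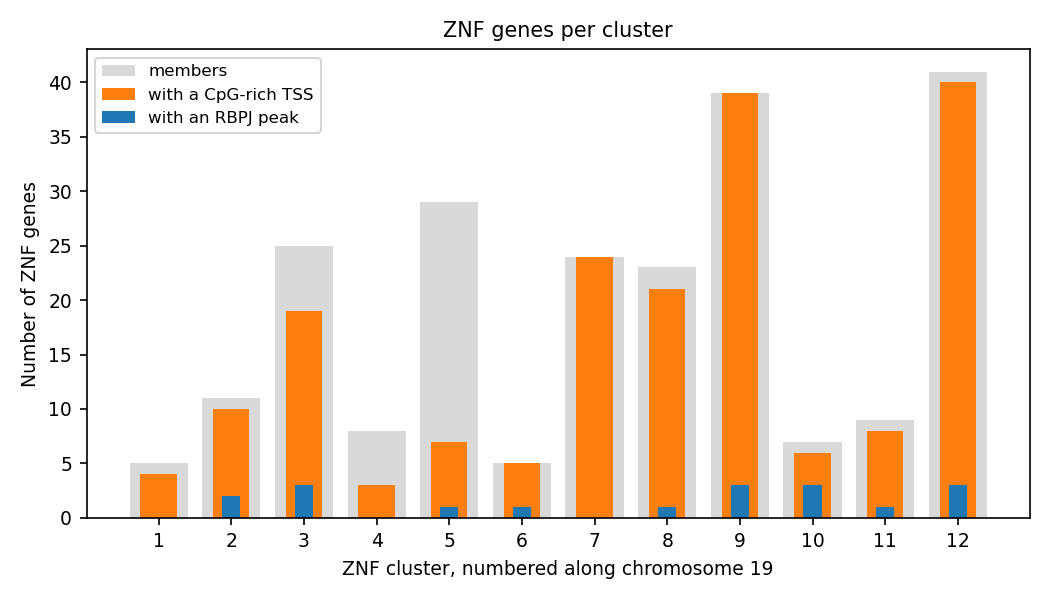
Number of ZNF genes (y axis) in each of the 12 clusters, numbered along chromosome 19 (x axis); grey bars are all members, orange those with a CpG-rich TSS and blue those with an RBPJ peak. Clusters 1, 4 and 7 have no member with an RBPJ peak, and cluster 7 has 24 CpG-rich members.

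The promoters of these genes held RBPJ words more often than those of other chromosome 19 genes, with intervals that did not overlap. Promoters were taken as 300 bases, 250 before and 50 from the canonical TSS on, and words were sought on both strands. CGTGGGAA or TGTGGGAA was in 17 of 240 members (7.08%, 4.47 to 11), in 29 of 1196 other chromosome 19 genes (2.42%, 1.69 to 3.46), in 13 of 236 ZNF genes elsewhere (5.51%, 3.25 to 9.20) and in 2.20% of all genes. The core TGGGAA, which is part of both words, was in 42.1% of members (36 to 48.4), 25.1% of other chromosome 19 genes (22.7 to 27.6), 28.4% of ZNF genes elsewhere (23 to 34.5) and 22.1% of all genes. For the high-affinity words the members' interval overlapped that of ZNF genes elsewhere, and for the core it did not. Members with similar promoters were counted as separate genes, which the intervals do not allow for. A match is a description of these letters and not a bound site.

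**Figure D5:**
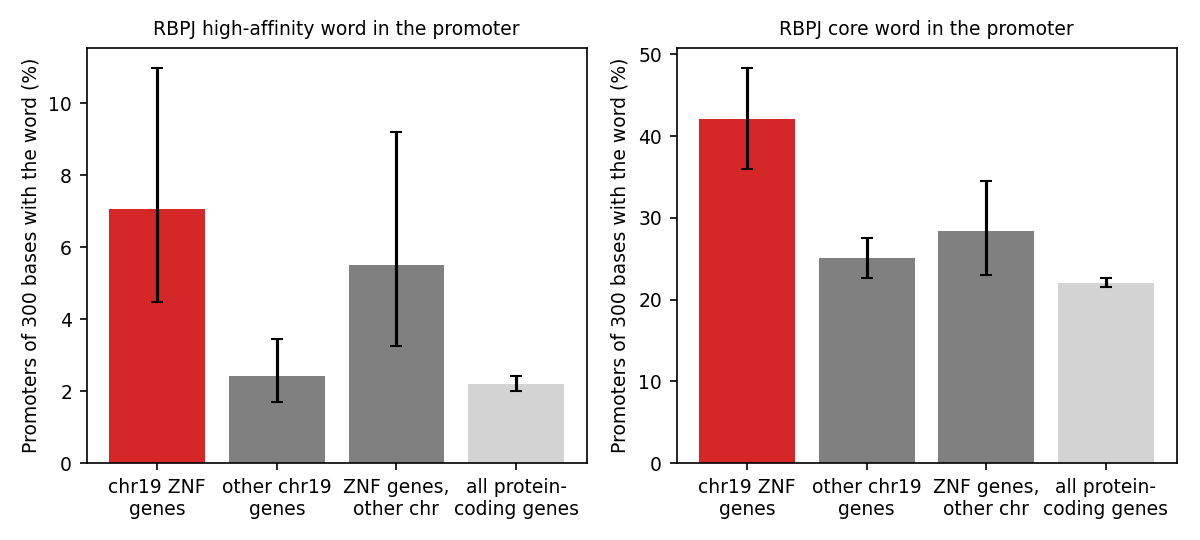
Percent of promoters of 300 bases that hold a high-affinity RBPJ word (left) or the core TGGGAA (right) in 4 groups of genes; bars are shares and error bars 95% Wilson intervals. The members are at 7.08% and 42.1%, and the other chromosome 19 genes at 2.42% and 25.1%.

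Of the 17 members with a high-affinity word in the promoter, only ZNF155 and ZNF614 had an RBPJ peak within 1 kb of a TSS (11.8%, 3.29 to 34.3), and 12 of the 223 without the word had one (5.38%, 3.10 to 9.17). At other chromosome 19 genes the same shares were 8 of 29 (27.6%, 14.7 to 45.7) and 10.7% (9.06 to 12.6), and over all genes 14.4% and 8.75%. The intervals for the 17 members are wide and include the shares of the other genes. For the core, 5.94% of members with it and 5.76% of those without it had a peak. Over the 21 peaks the high-affinity word was within 100 bp of the summit in 3 (14.3%, 4.98 to 34.6) and within 50 bp in 2 (9.52%), and the core was within 100 bp in 6 (28.6%). The other chromosome 19 peaks held the word in 8.88% (5.76 to 13.4) and the core in 25.7% of cases, and windows 2 kb to either side of the members' summits held them in 2 and 10 of 42 cases.

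The 15 members with the word and no peak include pairs whose bases about the word match to different degrees, and the pairs with the most matches are shown here. Each line is 30 bases of hg19 on the strand that reads CGTGGGAA or TGTGGGAA, with the word in capitals.
ZNF799: tggggcgggttCGTGGGAActgtcaatcag
ZNF443: tggggcgggttCGTGGGAActgtcaatcag
ZNF460: catctaccgggTGTGGGAActcacccagcg
ZNF543: catctaccgggTGTGGGAActcaccaagcg
ZNF529: gccctgaggccTGTGGGAAacgtagtccaa
ZNF567: gcccgggcgccTGTGGGAAatgtagtccaa
ZNF749: gcaggcagcagCGTGGGAActacattaccc
ZNF772: agtgttggtgcCGTGGGAActacattaccc
ZNF799 (chr19:12512077-12512106) and ZNF443 (chr19:12551914-12551943) are identical over all 30 bases. ZNF460 (chr19:57791660-57791689) and ZNF543 (chr19:57831684-57831713) match at 29, with C26A from ZNF460 to ZNF543, counted from the first base shown. ZNF529 (chr19:37064234-37064263) and ZNF567 (chr19:37178378-37178407) match at 26, and ZNF749 (chr19:57946529-57946558) and ZNF772 (chr19:57989010-57989039) at 21, all of the differences lying before the word. Over all 153 pairs of the 18 sites the median was 13 identical bases, of which at least 7 match in every pair because the windows are aligned on the word. The words lay 7 to 179 bp upstream of the canonical TSS in these 8 genes. Among the remaining members with the word and no peak was ZNF224, which encodes a KRAB zinc finger repressor.

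No peak of these genes lay in exactly repeated sequence. A peak was called repeated where 5 windows of 50 bases, the read length, about the summit had a median of more than 1 exact copy in the genome. None of the 21 peaks was, which allows up to 14.3% by the limit of 3 counts (Wilson upper bound 15.5%), and neither was any with windows of 36 bases. Of all RBPJ peaks 3.01% were repeated, and 1 of the other 214 on chromosome 19. At this length 2 of 240 members had a repeated TSS (0.833%) against 2.01% of other chromosome 19 genes, and windows spread over the gene bodies were repeated in 7.94% and 8.57% of cases. Similarity below identity was frequent, however. The promoter of 82 of 240 members (34.2%, 28.5 to 40.4) matched another chromosome 19 promoter over at least 100 bp at 80% identity or more, against 107 of 1196 other genes (8.95%, 7.46 to 10.7). For 79 of the 82 a match was another member. Of the 19 members with an RBPJ peak 3 had such a promoter (15.8%), and of the 221 without one 79 did (35.7%). No interval was computed for these shares, and with 19 members the difference between them was not tested.

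Of the peak windows of 100 bases to either side of the summit, those of ZNF675 and ZNF611 had diverged copies on chromosome 19 at this similarity, 4 and 12 of them. The ZNF675 window belongs to a dispersed repeat: 99 further copies of at least 100 aligned bases were found on the assembled chromosomes, 74.5% to 89.4% identical to it (median 83.6%). Of these, 98 cover the position of the RBPJ word. None reads CGTGGGAA there, and 2 read TGTGGGAA (substitution C1T, counted from the first base of the word). The most frequent letters were CATGGGGA, in 26 copies, and CGTGGGGA, in 10. None of the 99 copies had an RBPJ or L3MBTL3 summit in it or within 100 bp, including the 2 with TGTGGGAA. Of the 99 copies, 1 lies inside ZNF675 itself (chr19:23740198-23740325, 86.7% identical) and differs in the word by A7G.

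Other genes of the same biology were set beside these, in numbers too small to set apart from the 12.4% (RBPJ) and 1.65% (L3MBTL3) of all protein-coding genes. Of 21 genes of the KRAB repression machinery (TRIM28, SETDB1, ATF7IP, heterochromatin proteins, the HUSH complex, histone deacetylases and DNA methyltransferases among them), 1 had an RBPJ peak and none an L3MBTL3 peak. The 1 was DNMT1, the maintenance DNA methyltransferase, with a fold of 5.08 at 121 bp from its TSS and 76 bp from that of S1PR2. On chromosome 19 the genes with a ZNF symbol that ends in a letter had a peak in 2 of 6 cases, ZNF780B (fold 5.58, 20139 bp from its TSS) and ZNF324B (fold 3.35, 3 bp from it). Of 5 ZFP genes 2 had one: ZFP14 (5.08) and ZFP36, an RNA-binding protein gene outside this family despite its symbol (3 peaks of 5.33, 6.57 and 5.92). None of 7 ZSCAN, 2 ZIM and 20 olfactory receptor genes of the chromosome had an RBPJ peak. Among ZNF genes of other chromosomes the highest fold was 7.86, at ZNF775 on chromosome 7.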

How the data were processed

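Per the labels' protocols, Trimmomatic removed adaptors and BWA 0.7.15 did the alignment (hg19), and per the submitters' processing notes peaks were called with MACS2. For its settings and control: not given in the sources used here. Either list comes from a single library. The deposited columns used were fold enrichment (a ratio to local background), -log10 p and -log10 q (p-value and q-value scales), and the summit. Read counts behind single peaks are unknown. No summit lay beyond a chromosome end of the GRCh37 sequence used.

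Summits were assigned to genes of GENCODE 44 lifted to GRCh37. Wilson intervals used statsmodels 0.14.6, similarity blastn 2.17.0, and exact copies a hash search of both strands. The code was tested on simulated data. No significance test was run.

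Members and lists were chosen with earlier results of these data known. Named are the 15 members with the highest RBPJ fold, with repeated or L3MBTL3 peaks (there were none), and the fixed corepressor and family lists. The 4 weaker members with a peak, the members with an RBPJ word, the promoter and repeat comparisons and genes just outside the window were chosen after values were seen. The alternatives tried are in the closing section.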

Additional observations from a re-analysis of the deposited data

How the results depend on the processing

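No paired analysis was possible because each antibody had 1 library. Of 81 alternative values 70 stayed within the interval of the value as given (for clusters, within 1.5 times it) and 11 did not. The 70 include 21 L3MBTL3 shares of 0, nearly all of which could not rise by construction. The share of members with an RBPJ peak became 20.8% with 50 kb about a TSS, 1.25% when -log10 q had to reach 5 and 3.75% with folds of at least the list median. The share of other chromosome 19 genes became 8.86% for the gene body only, 11.1% for 1 kb, 40.9% for 50 kb, 3.51% with the stricter q, 10.8% with folds of at least the median, 12% with the nearest TSS only and 25.6% for CpG-rich genes. The median fold at members became 7.24 with the stricter q, which leaves 3 peaks. Each such setting changes the window, the peaks or the set of genes by construction. In all 10 settings run for both groups the share was lower in members, but the intervals overlapped in 3: gene body only (5.42%, 3.19 to 9.05, against 8.86%, 7.38 to 10.6), 1 kb and the stricter q. No member gained an L3MBTL3 peak with the 50 kb window (Wilson upper bound 1.58%). In that window 3.43% of other chromosome 19 genes had one (2.54 to 4.62) and 2.90% of all genes (2.68 to 3.14), both above the members' bound. The share of ZNF genes elsewhere was 2.12% (0.908 to 4.86), which overlaps it. The depth behind single peaks is unknown, so a gene without a peak cannot be read as unbound, and 19 members with a peak are too few to compare clusters. The TSS of any transcript, and the median without ZNF675, were chosen after seeing the data.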
